A study of Homo sapiens with 3 samples.

Results

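The genes examined were 9 chemokines chosen by their symbols: the CC ligands CCL2, CCL5, CCL20 and CCL28, the CXC ligands CXCL10, CXCL11, CXCL12 and CXCL16, and CX3CL1. Values were found for 8 of the 9 among 24254 gene symbols, and CCL28 was not analysed here. They were measured by mRNA sequencing of LX-2, an established human hepatic stellate cell line, with 1 library from vehicle-treated cells, 1 from cells given recombinant human FGF19 (rhFGF19) at 50 ng/mL and 1 from cells given 100 ng/mL, hereafter the low-dose and high-dose libraries. Because each condition was a single library, no difference between conditions had a replicate check, no test was possible and no error can be attached to a value. The doses follow the sample titles and the agent field, whereas the description field exchanges them and gives 72 and 73 h of stimulation where the series design gives 24 h. The question the libraries address is whether FGF19, an endocrine fibroblast growth factor, moves stellate cells toward an inflammatory state, in which chemokine output is a central readout.

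Chemokines are small proteins that guide migrating cells along gradients through G protein-coupled receptors, and their classes are named by the spacing of the first cysteines of the mature protein. In the CC class these cysteines are adjacent, in the CXC class 1 residue separates them, and in CX3CL1 there are 3. CXC ligands that carry the residues glutamate, leucine and arginine (ELR) just before the first cysteine attract neutrophils through CXCR1 and CXCR2, whereas ligands without them mainly attract lymphocytes and monocytes. In liver injury, stellate cells and other fibroblasts are known sources of several of these ligands.

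The coding bases around the cysteine motif are shown to illustrate the classes. The spacing sought in each gene was that of the class in its symbol, so it is no check of the class. The bases were read from GENCODE v29 transcripts, 5′ to 3′, with the codons of both motif cysteines in capitals. Each window has 6 codons before the first of these cysteines and 42 bases in all. CXCL8 is an ELR ligand given for contrast.
CCL2: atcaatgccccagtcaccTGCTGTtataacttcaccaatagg
CCL5: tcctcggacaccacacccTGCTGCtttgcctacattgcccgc
CCL20: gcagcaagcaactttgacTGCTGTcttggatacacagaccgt
CXCL10: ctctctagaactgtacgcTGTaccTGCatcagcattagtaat
CXCL11: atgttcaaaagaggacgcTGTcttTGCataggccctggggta
CXCL12: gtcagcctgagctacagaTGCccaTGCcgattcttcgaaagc
CXCL16: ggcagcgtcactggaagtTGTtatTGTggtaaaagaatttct
CX3CL1: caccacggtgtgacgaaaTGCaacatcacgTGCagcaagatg
CXCL8: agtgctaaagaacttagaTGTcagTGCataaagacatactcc
None of the 8 genes encoded ELR before its motif, and CXCL8 did. The encoded proteins ranged from 91 residues for CCL5 to 403 for CX3CL1, which, like CXCL16 with 273 residues, is made as a transmembrane protein whose chemokine domain can be shed.

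The deposited values are FPKM (fragment numbers scaled to transcript length and to the mapped fragments of the library), a level per transcript length that allows genes to be compared within a library. They summed to between 276690 and 302243 per library over all rows. FPKM keep no read counts, so the depth behind a value is unknown and low values, written to 2 decimals, are less certain than they look. Of 10 stellate cell markers, 9 were at 1 FPKM or more in every library, whereas COL1A2, a collagen I chain, was at 0.03, 0.10 and 0.14 FPKM in the vehicle, low-dose and high-dose libraries. Summed markers lay between 11.3 and 12.6 FPKM for hepatocytes (6 of 6 genes with a value), 42.4 and 51.9 for leukocytes (3 of 6), 0.48 and 0.50 for endothelial cells (4 of 4) and 0.86 and 1.19 for epithelial cells (3 of 4). The leukocyte sum came mostly from CD68, at 47.5, 44.2 and 39.8 FPKM. CD14 was at 4.28, 2.76 and 2.54 FPKM, and ITGAM at 0.07 FPKM or below.

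CCL5 stood far above the other 7 genes in every library and hardly differed between conditions. CCL5 (ENSG00000271503, GRCh38 chromosome 17 from 35871491 to 35880793, minus strand) attracts T cells and monocytes. It was at 250.79 FPKM in vehicle, 245.5 at low dose and 244.09 at high dose. All 3 libraries therefore lay within a narrow band, with vehicle the highest. As for every bulk value here, fewer cells of a type and less RNA per cell cannot be told apart. In vehicle the level exceeded that of 99.3% of all symbols, and in each rhFGF19 library that of 99.4%. CCL5 made up 98.7% of the summed FPKM of the 8 genes in vehicle, 98.2% at low dose and 98.3% at high dose. An antisense transcript of AC015849 (ENSG00000270240) spans the whole gene on the opposite strand and was listed at 0.00, 0.17 and 0.07 FPKM.

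CCL2 and CCL20 were close to the lower limit of the table. CCL2 (ENSG00000108691, chromosome 17 from 34255218 to 34257203), which recruits monocytes through CCR2, was at 0.11 FPKM in vehicle, 0.10 at low dose and 0.09 at high dose. CCL20 (ENSG00000115009, chromosome 2 from 227805739 to 227817556), the ligand of CCR6 on dendritic cells and subsets of lymphocytes, was at 0.10, 0.10 and 0.07 FPKM. At this level and with unknown depth, the differences between libraries cannot be read for either gene.

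CXCL12 was the gene of the 8 that was more than 2-fold higher than vehicle at both doses, as were 36.3% of the 12422 symbols whose mean over the libraries reached 0.5 FPKM. CXCL12 (ENSG00000107562, chromosome 10 from 44370165 to 44385092, minus strand) signals through CXCR4 and is scavenged by ACKR3, and is known for retaining haematopoietic cells in marrow and lymphocytes in tissue. It was at 0.52 FPKM in vehicle, 1.45 at low dose and 1.19 at high dose. Both rhFGF19 libraries lay above vehicle, and the lower dose gave the higher value. The difference in log2(FPKM + 0.1) was under 2-fold at both doses once the trend of fold changes on transcript GC content was removed (0.57 and 0.32), after removing the length trend instead (0.89 and 0.63), with quantile normalization (0.47 and 0.23) and with a pseudocount of 1 (0.69 and 0.53), and at high dose with the median ratio to vehicle set to 0 (0.85).

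The CXCR3 ligands CXCL10 and CXCL11, which attract activated T cells and are classically induced by interferon, were low and did not follow each other across the libraries. CXCL11 (ENSG00000169248, chromosome 4 from 76033682 to 76041415, minus strand) was at 0.25 FPKM in vehicle, 0.48 at low dose and 0.91 at high dose, the highest library being that of the higher dose. CXCL10 (ENSG00000169245, chromosome 4 from 76021118 to 76023497, minus strand) was at 0.13 FPKM in vehicle, 0.61 at low dose and 0.17 at high dose, the highest library being that of the lower dose. Their summed level was 0.38 FPKM in vehicle, 1.09 at low dose and 1.08 at high dose. Both genes lie inside the span of ART3, which is annotated on the opposite strand and was not analysed here. The span of CXCL11 also holds AC112719.1, annotated as a processed pseudogene on the same strand and likewise not analysed here. No source used here states that reads were counted by strand.

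Both transmembrane ligands were listed lower in the rhFGF19 libraries than in vehicle, CXCL16 by less than 2-fold. CXCL16 (ENSG00000161921, chromosome 17 from 4733531 to 4739928, minus strand), the ligand of CXCR6 and also a scavenger receptor for oxidized lipoprotein, was at 1.96 FPKM in vehicle, 1.58 at low dose and 1.61 at high dose. Its ends share 77 bases with MED11 and 96 bases with ZMYND15 on the opposite strand. CX3CL1 (ENSG00000006210, chromosome 16 from 57372477 to 57385044), which binds CX3CR1 on monocytes and natural killer cells, was at 0.17, 0.10 and 0.06 FPKM. Vehicle was the highest library for both genes, at levels that were near the limit of the table for CX3CL1.

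Ordered by mean level, the genes ran from CCL5 through CXCL16, CXCL12, CXCL11, CXCL10, CX3CL1 and CCL2 to CCL20. The ranges over the 3 libraries of neighbours in this order did not overlap between CCL5 and CXCL16 or between CXCL16 and CXCL12, and overlapped for every other pair of neighbours.

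**Figure D1:**
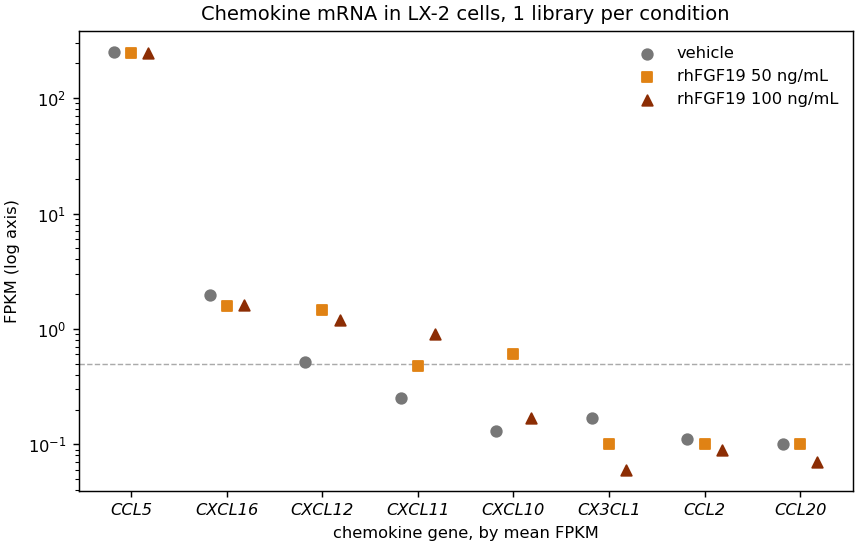
FPKM of the 8 chemokine genes (logarithmic vertical axis, genes ordered by mean), with 1 point per library for vehicle (circles), low dose (squares) and high dose (triangles), and a dashed line at 0.5 FPKM. CCL5 sits near 250.79 FPKM in all 3 libraries, while the other 7 genes lie at or below 1.96 FPKM.

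To place these genes in the chemokine output of the cells, all 23 chemokine ligands with a value were summed. The sum was 475.14 FPKM in vehicle, 655.96 at low dose and 657.84 at high dose. CCL5 ranked first of the 23 in every library, yet its share was 52.8% in vehicle, 37.4% at low dose and 37.1% at high dose. The 6 ELR ligands with a value summed to 183.67 FPKM in vehicle, 381.38 at low dose and 382.68 at high dose, and their share was 38.7%, 58.1% and 58.2%. CCL5 was 5.3 times as high as CXCL8 in vehicle, 1.71 times at low dose and 1.67 times at high dose. The CCL5 level thus differed little where its share was lower. The ELR sum came mostly from CXCL1 and CXCL8, whose log2 fold changes lay within 0.12 of those of symbols with similar GC content, while that of CCL5 differed from them by -0.36 at each dose. The 7 genes other than CCL5 contributed 3.24, 4.42 and 4.10 FPKM, under 1% of the sum in each library. CXCL12 ranked 12th of the ligands in all libraries.

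**Figure D2:**
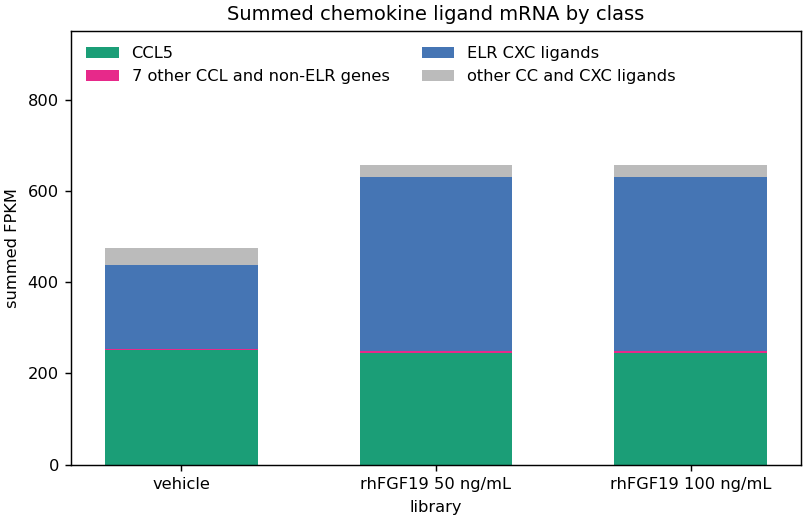
Summed FPKM (vertical axis from 0) of chemokine ligands in each library, stacked as CCL5, the 7 other CCL and non-ELR genes, the 6 ELR CXC ligands and 9 other ligands. The CCL5 segment measures 250.79, 245.5 and 244.09 FPKM from left to right, and the ELR segment 183.67, 381.38 and 382.68.

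Fold changes were taken on the log2(FPKM + 0.1) scale, where changes of low genes come out too small, for the 12422 symbols whose mean over the 3 libraries reached 0.5 FPKM. This filter kept 4 of the 8 genes. CXCL11 lay just inside it with a mean of 0.547 FPKM and CXCL10 just outside with 0.303. CXCL11 passed only through its high-dose value, since its other values were below 0.5 FPKM, so its count as higher at that dose is not independent of the filter. At low dose, 1 of the 4, CXCL12, was more than 2-fold higher than in vehicle, as were 39.5% of all symbols, and none of the 4 was more than 2-fold lower, against 1.75% of all symbols. At high dose, 2 of the 4, CXCL11 and CXCL12, were more than 2-fold higher, against 38.6% of all symbols, and none was lower by that much, against 1.47%. In both libraries 1 of the 4 was higher by that measure, against 36.3% of all symbols. A count of 1 or 2 among 4 genes lies near these background shares and sets the chemokines apart from other genes in neither comparison. With quantile normalization CXCL11 and CXCL12 were no longer past 2-fold. The comparisons share the vehicle library and are not independent of each other.

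The median log2 fold change of all 12422 symbols was 0.62 at both doses, so a gene with equal FPKM in 2 libraries lay below the middle of the distribution. CCL5 had a log2 fold change of -0.031 at low dose and -0.039 at high dose, which turned to 0.28 and 0.25 under quantile normalization and 0.097 and 0.063 with values rescaled to TPM. As deposited, this was a distance of -0.65 and -0.66 from that median, and higher than 33.5% and 32.9% of symbols. CXCL16 had -0.29 and -0.27, higher than 24.9% and 25.0% of symbols. CXCL12 had 1.32 and 1.06, higher than 74.6% and 63.7%. CXCL11 had 0.73 and 1.53, higher than 52.5% and 85.9%. The distribution has a peak on each side of its median, and CCL5 and CXCL16 lay on the lower side and CXCL11 and CXCL12 on the upper side at both doses.

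**Figure D3:**
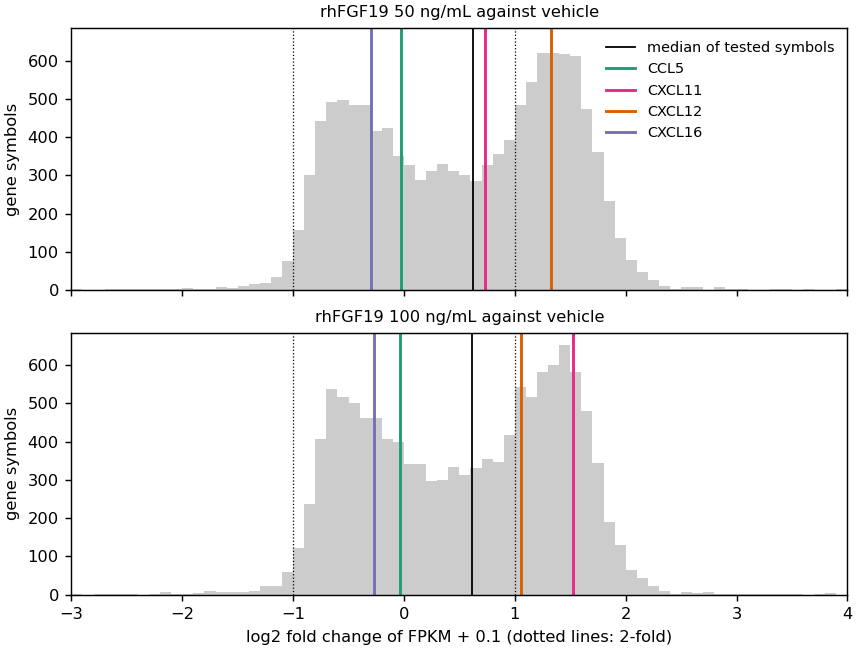
Histograms of the log2 fold change of FPKM + 0.1 against vehicle (horizontal axis) over 12422 gene symbols (vertical axis, number of symbols) at the low dose (top) and high dose (bottom), with coloured lines for the 4 chemokine genes past the filter, a black line at the median and dotted lines at 2-fold; 28 and 20 symbols lie beyond the plotted range of -3 to 4. CXCL16 and CCL5 lie left of the median in both panels, and CXCL11 lies at 0.73 in the upper and 1.53 in the lower panel.

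The fold changes against vehicle went down with the GC content of the transcripts across symbols, with a Spearman correlation of -0.77 at both doses over 12397 symbols of the same libraries, which are not independent replicates. The chemokine transcripts differ widely in this property, from 34.5% GC for CXCL11 to 57.8% for CXCL16 among the 4 genes past the filter. CXCL11 had a log2 fold change of 1.53 at high dose where the trend at its GC content was 1.54, a difference of -0.014. At low dose its difference from the trend was -0.82. CXCL12, at 50.1% GC, was 0.57 above the trend at low dose and 0.32 above it at high dose. CCL5, at 53.2% GC, differed from the trend by -0.36 at each dose, and CXCL16 by -0.12 and -0.11. Relative to symbols of similar GC content none of the 4 was past 2-fold at either dose. Of the 12397 symbols with a GC content, 464 and 413 were more than 2-fold above the trend at low and high dose, and 636 and 569 below it. The part of the GC trend in the differences of the 4 genes was not tested. A property of the single vehicle library cannot be told apart from a response to rhFGF19. The 4 genes below the filter had 36.2% GC for CCL20, 37.5% for CXCL10, 46.0% for CCL2 and 59.7% for CX3CL1.

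**Figure D4:**
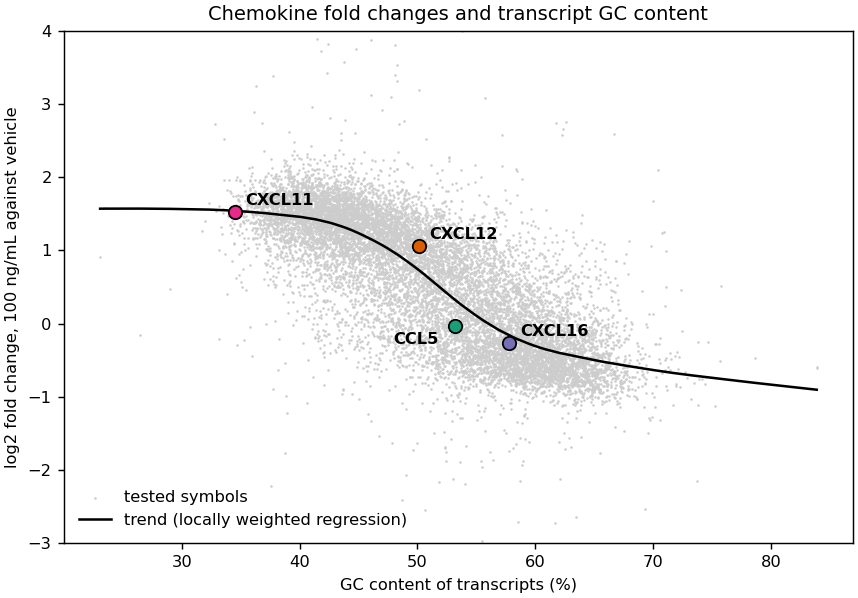
Log2 fold change at high dose against vehicle (vertical axis, shown from -3 to 4) against the GC content of transcripts in percent (horizontal axis) for the tested symbols (grey) and 4 chemokine genes (coloured), with the locally weighted trend as a black line. CXCL11 lies on the trend, CXCL12 is 0.32 above it, and CCL5 and CXCL16 differ from it by -0.36 and -0.11.

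Between the rhFGF19 libraries, none of the 4 genes differed by more than 2-fold, as 0.845% of all symbols did with the high-dose library higher and 0.797% with it lower. The median absolute log2 difference of all symbols was 0.089. CCL5 differed by -0.0083 and CXCL16 by 0.026 on the log2 scale in the high-dose against the low-dose library, less than this median. CXCL12 differed by -0.26, and 15.3% of symbols differed by at least as much. CXCL11, which the high-dose value itself brought past the filter, differed by 0.80. With a single library per dose the CXCL11 difference has no replicate behind it, and the gene was below 1 FPKM in all 3 libraries.

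The CXCR3 ligands lie 10184 bases apart. Their promoters are shown as a description, from 250 bases before to 50 after the RefSeq start (GRCh38.p14, the build that the table's coordinates matched). A link between these sequences and the levels of the 2 genes was not tested. RefSeq promoters matched 5 of the 9 genes, 4 of them with a value. The CXCL11 and CCL20 windows lie inside the spans given above for these genes, so their starts are not the 5′ ends of those spans. Capitals mark matches on either strand to the interferon response element core (GAAANNGAAA), the gamma-activated site (TTCNNNGAA), the NF-κB motif and the TATA box (TATAAA).
CXCL10, chr4:76023448-76023747, minus strand:
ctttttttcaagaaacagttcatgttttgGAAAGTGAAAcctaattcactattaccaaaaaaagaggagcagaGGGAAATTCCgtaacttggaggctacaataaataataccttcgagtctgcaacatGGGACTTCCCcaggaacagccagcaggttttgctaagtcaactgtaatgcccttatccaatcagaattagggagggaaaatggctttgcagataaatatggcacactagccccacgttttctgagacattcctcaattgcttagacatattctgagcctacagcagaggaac
CXCL11, chr4:76036021-76036320, minus strand:
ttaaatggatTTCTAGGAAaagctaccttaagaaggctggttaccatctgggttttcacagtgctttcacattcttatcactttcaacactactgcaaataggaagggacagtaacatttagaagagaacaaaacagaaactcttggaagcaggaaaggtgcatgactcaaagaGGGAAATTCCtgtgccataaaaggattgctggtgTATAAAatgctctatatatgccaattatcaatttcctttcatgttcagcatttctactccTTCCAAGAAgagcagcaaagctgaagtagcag
The CXCL10 window held 1 interferon response element core and 2 NF-κB motifs. The CXCL11 window held 2 gamma-activated sites, 1 NF-κB motif and 1 TATA box. The CCL20 window held 1 NF-κB motif and 1 TATA box, and the CXCL12 window, at 77.0% GC, held none of the 4 motifs. Of all 35116 RefSeq promoters, 3.57% held the interferon core, 7.66% the gamma-activated site, 11.3% the NF-κB motif and 11.5% the TATA box. A match describes the letters in the window and no binding was measured.

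Genes of the interferon and NF-κB pathways, whose motifs were sought above, were measured alongside. A link between their levels and those of the ligands was not tested. Of 15 interferon pathway genes past the filter, 8 at low dose and 6 at high dose exceeded vehicle more than 2-fold, against 39.5% and 38.6% of all symbols. JAK2, counted at both doses, was at 0.19, 0.70 and 0.67 FPKM. It passed the filter only through its rhFGF19 values, so its count is not independent of the filter. The median log2 fold change of the list was 1.01 and 0.48, above and below that of all symbols. Relative to the GC trend none of its genes was more than 2-fold higher, against 464 and 413 of 12397 symbols. The interferon receptor chains IFNGR1 (0.82 FPKM in vehicle, 3.94 at low dose and 3.39 at high dose) and IFNAR2 (0.83, 2.75 and 3.36 FPKM) had the largest averaged fold changes in this list. They exceeded the GC trend at their GC content by 0.90 and 0.52 on the log2 scale at low dose, and by 0.71 and 0.82 at high dose. The highest gene of the list, IRF3, which acts downstream of nucleic acid sensors, was at 43.7, 26.7 and 25.5 FPKM. IRF9, the DNA-binding subunit of the complex that recognizes interferon response elements, was named after its values were seen. It was at 3.66 FPKM in vehicle, 3.72 at low dose and 0.93 at high dose. It is the 1 listed gene that was more than 2-fold lower than vehicle at high dose, as were 1.47% of all symbols. Relative to the GC trend IRF9 was at 0.075 at low dose and -1.82 at high dose. At high dose 569 of 12397 symbols were more than 2-fold lower by that measure.

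Of 13 NF-κB pathway genes past the filter, 4 were more than 2-fold higher at each dose, against 39.5% and 38.6% of all symbols. At low dose 1, RELB, was more than 2-fold lower and at high dose none, against 1.75% and 1.47% of all symbols. The list's median log2 fold change was -0.33 at low dose and -0.24 at high dose, below that of all symbols. TNFAIP3, a feedback inhibitor, was at 3.86 FPKM in vehicle, 10.9 at low dose and 10.6 at high dose. CHUK, a catalytic kinase subunit, was at 0.83, 2.26 and 2.44 FPKM. NFKBIZ, an atypical nuclear IκB protein, was at 2.82, 6.41 and 6.15 FPKM. Relative to the GC trend TNFAIP3 was at 0.72 and 0.69 on the log2 scale, CHUK at -0.15 and -0.029 and NFKBIZ at -0.16 and -0.20. The highest gene of the list in vehicle was NFKBIE, another inhibitor, at 68.8, 44.2 and 40.8 FPKM.

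Receptors for these ligands were scarce in LX-2 cells. Of 10 receptors of the 9 ligands, 7 had a value and 1 passed the filter: CCR10, a receptor of CCL28, at 3.21, 2.56 and 2.73 FPKM in the vehicle, low-dose and high-dose libraries. CXCR4, the receptor of CXCL12, was at 0.06, 0.23 and 0.16 FPKM, and CXCL12 was 8.67, 6.3 and 7.44 times as high in the same libraries. These ratios rest on CXCR4 values near the lower limit of the table, so the differences between them cannot be read. Of the other chemokine receptors, CCRL2, which presents chemerin and does not signal, was at 1.11, 3.12 and 2.31 FPKM. The atypical receptor ACKR1, which binds CCL2 and CCL5 among others, was highest at low dose with 2.31 FPKM and lowest at high dose with 1.68, and ACKR3 was at 0.10, 0.03 and 0.19 FPKM.

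Of 6 listed proteases that release or trim chemokines and their regulators, 5 had a value and DPP4 was not analysed here. ADAM10 and ADAM17, the sheddases of CXCL16 and CX3CL1, were the 2 of these 5 that were more than 2-fold higher than vehicle at both doses, against 36.3% of all symbols, a share near that of the list. ADAM10 was at 0.86 FPKM in vehicle, 3.28 at low dose and 3.04 at high dose, and ADAM17 at 0.34, 1.15 and 1.20 FPKM. ADAM17 passed the filter only through its rhFGF19 values, so its count as higher is not independent of the filter. ADAM10 and ADAM17 were above the GC trend by 0.35 and 0.075 on the log2 scale at low dose and by 0.26 and 0.15 at high dose. MMP2, which can truncate CXCL12, had log2 fold changes of 0.53 and 0.34, and MMP9, the highest of this list, was at 19.7, 16.0 and 16.1 FPKM.

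Among the ligands outside the 9, the CC genes past the filter were lower in both rhFGF19 libraries by less than 2-fold. CCL3, which recruits macrophages, was at 20.9 FPKM in vehicle, 13.1 at low dose and 14.5 at high dose, and CCL26, which recruits eosinophils, at 4.81, 2.63 and 3.64 FPKM. CCL3L3, at 11.1, 8.03 and 8.19 FPKM, is a near-identical copy of CCL3, so the split of reads between them is uncertain. Relative to the GC trend all 3 genes were more than 2-fold lower at low dose, with log2 differences of -1.25 for CCL3, -1.15 for CCL3L3 and -1.35 for CCL26. At high dose CCL3 and CCL3L3 were so, with -1.10 and -1.11, and CCL26 was at -0.88. Of 12397 symbols, 636 at low dose and 569 at high dose were more than 2-fold lower by this measure. Of the other non-ELR CXC ligands, CXCL17 alone had a value, at 0.04 FPKM or below. Among the 6 ELR ligands, 4 were more than 2-fold higher at both doses, against 36.3% of all symbols, the largest averaged fold change being that of CXCL8 (47.4, 143 and 146 FPKM). Relative to the GC trend CXCL2 alone was past 2-fold, with 1.57 and 1.61 on the log2 scale, against 464 and 413 of 12397 symbols higher. CXCL8 was at 0.083 and 0.12, CXCL5 at -0.30 and -0.17 and CXCL6 at 0.17 and 0.083. The highest ELR ligand, CXCL1, was at 122 FPKM in vehicle, 207 at low dose and 205 at high dose. Fold changes of CC and ELR ligands come from the same 3 libraries.

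The symbols closest to each gene over the 3 libraries were found by the Euclidean distance between mean-centred log2(FPKM + 0.1) values, among symbols with a mean within 2-fold of its own. For CCL5 they were EEF1B2, PGAM1 and ARF1, for CXCL12 MTERF3, ELK4 and KIF18A, and for CXCL16 SPG7, ARHGEF10L and FAM131B. Their distances were at most 0.026 for each of these 3 chemokines. For CXCL11 they were AC104561, AL161729 and OTUD1, at distances of 0.052 to 0.14. With 3 libraries such likeness is a description of the profile only.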

How the data were processed

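LX-2 cells were sequenced as 1 vehicle library and 1 library each at 50 and 100 ng/mL rhFGF19, from poly(A)-selected RNA. Reads were aligned with HISAT2 by the authors, who deposited FPKM in 26108 rows with Ensembl identifiers. The submitters' processing notes name HISAT2 2.0, StringTie 1.3.0 and Bowtie 0.12.2, and the builds hg19 and mm8. The coordinates overlapped GENCODE v29 (GRCh38) for 99.9% of 25531 identifiers and are given as GRCh38.

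From the deposited FPKM, rows sharing a symbol were summed, and differences in log2(FPKM + 0.1) were taken library against library where the mean over the 3 libraries reached 0.5 FPKM. A difference above 1 on the log2 scale was counted, the criterion of the study's methods. No p-value was computed. Transcript GC content and length were taken as the median of a gene's listed transcripts, and trends came from locally weighted regression (span 0.3). The genes and lists were chosen with earlier results of these data known. Of other lists, up to 3 genes of 1 direction with the largest averaged fold change and the highest gene were named, with receptors and other genes added for their role. Another 12 settings were tried, 1 of them chosen after seeing the data. The procedure was tested on simulated data, with only symbols at 1 FPKM or more in vehicle and planted changes larger than the threshold. The simulation does not bear on the counts of CXCL11 and CXCL12, which were lower than that in vehicle. Python 3.11.15, NumPy 2.4.6, pandas 2.3.3, statsmodels 0.14.6, Biopython 1.88 and Matplotlib 3.10.9 were used. Some listed pathway and receptor genes are counted but not reported here by name.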

Additional observations from a re-analysis of the deposited data

How the results depend on the processing

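No paired analysis was possible because each condition had 1 library. Of the 4 chemokine genes past the filter, 1 was past 2-fold at 50 ng/mL, 2 at 100 ng/mL and 0 between the rhFGF19 libraries. As deposited 4903 and 4793 of 12422 symbols were more than 2-fold higher at 50 and 100 ng/mL. The chemokine counts against vehicle were 0 and 0 with a pseudocount of 1 (2189 and 2074 of all symbols higher), with a threshold of 2 on the log2 scale (222 and 186), with the GC trend removed (464 and 413) and with the GC and length trends removed (486 and 429), which was chosen after seeing the data. With the length trend removed they were 0 and 1 (CXCL11; 1736 and 1681). With the filter raised to a mean of 1 FPKM, which leaves out CXCL11, they were 1 and 1 (CXCL12; 3968 and 3881 of 10485). CXCL12, at 0.52 FPKM in vehicle, passed that filter only through its rhFGF19 values, so these counts are not independent of it. With the median ratio to vehicle set to 0 the chemokine counts were 1 and 1, CXCL12 at 50 and CXCL11 at 100 ng/mL (3774 and 3686). Quantile normalization (1223 and 1121 of all symbols lower) gave 1 and 1, but the gene was CXCL16, lower than vehicle by a log2 fold change of -1.12 and -1.08, against -0.29 and -0.27 as deposited. Without a filter on low values CXCL10 joined, giving 2 at 50 ng/mL (6706 of 24254 symbols) and 1 between the doses (805 lower). The log2 fold change of CXCL11 at 100 ng/mL turned to -0.014 with the GC trend removed and -0.022 with both trends removed, a change relative to genes of similar GC content. That of CXCL12 stayed above 0 and that of CXCL16 below 0 at both doses in the 11 settings that give a fold change. CCL5 ranged from -0.48 to 0.28 and was above 0 with values rescaled to TPM and with quantile normalization. Other causes of these shifts were not tested. With unknown depth, values under 1 FPKM carry the least weight.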
